A study of Bos taurus with 4 samples.

Results

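Genes of fatty acid oxidation and of the lipid droplet were measured in bovine blastocysts sired by bulls at 10 or at 16 months of age. The set held 48 genes named by function, and the rule that picks them uses no measured value, though the set was drawn up with earlier results of these data known. They cover fatty acid uptake and activation, the carnitine shuttle, oxidation in mitochondria and peroxisomes, triglyceride synthesis and storage, lipolysis, and the transcriptional regulators of these steps. The array annotation carried 44 of the 48, on 68 probes, out of 15229 gene symbols in all, and 41 of the 44 had signal enough to be tested, out of 13506 genes tested. The symbols ACAD9, HADHA, ECI1 and ECI2 were not in the annotation.

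The design names 4 bulls, each used at both ages. Their sperm fertilised oocytes from slaughterhouse ovaries in vitro, and the RNA of the resulting blastocysts was amplified and tagged with Cy3 or Cy5. The 4 arrays set both sire ages against each other in opposite dyes, with the 10-month embryos in Cy5 on replicates 1 and 2 and in Cy3 on the other two. The labels do not tie an array to a bull or give the number of embryos per sample, so the p-values measure only the spread between these arrays. The fit takes that spread partly from all tested probes, with 5.72 prior beside 2 residual degrees of freedom. A printed SE, interval or p-value thus does not rest on the values of that gene alone.

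Fatty acids enter cells through carriers such as CD36, are bound by small cytosolic proteins, and are activated by ligation to coenzyme A. The carnitine shuttle takes the activated chains into mitochondria, where repeated rounds of dehydrogenation, hydration, dehydrogenation and thiolysis shorten them and release acetyl-CoA and electrons. Fatty acids that are not burned are stored as triglyceride in droplets coated by perilipins, and lipases release them again. Bovine oocytes and embryos are known for their large droplet stores, and oxidation of these fatty acids is an energy source of the early embryo.

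None of the 41 genes passed the test for sire age. With limma and Benjamini-Hochberg adjustment over all 36325 probes tested, 0 of 41 had an adjusted p under 0.05, against 0 of all probes (0%), and the smallest adjusted p among the 41 was 0.957. At an unadjusted p under 0.05 the count was 1 of 41, ACSL6, where 4.47% of all genes tested reached that level. The fitted log2 ratio of 10 over 16 months ran between -0.29 (ACSL6) and 0.30 (ACSL5). Its median over the 41 genes was -0.0088, beside -0.0027 over all genes, with 20 genes above 0 and 21 below.

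The sign of the ratio was the same on all 4 arrays for 4 of 41 genes, and 9.8% of all genes had that property. CPT1A and ACADL were the genes higher on each array at 10 months, and ACSL6 and ETFDH those lower. The normalized intensities of the ages overlapped for every member tested, so 0 of 41 were separated, where 1.02% of all genes were. The 23 oxidation genes, from the carnitine shuttle to the peroxisome, had a median ratio of -0.012 with 10 above 0 and 13 below. The 7 genes of storage and lipolysis had a median of 0.043 with 4 above 0 and 3 below.

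How large a difference these arrays could have missed is given by the 95% interval of the fit, which reached a median of 0.30 to either side on the log2 scale, the same as over all genes. A 2-fold difference in the computed ratio lay outside the interval of all 41 genes, beside 99.3% of all genes. A 1.5-fold difference lay outside it for 37 of 41 (90.2%, beside 85.1% of all genes). The interval of ACSL5 reached up to 0.68, and the intervals of CPT1B, DGAT2 and PLIN3 reached down to -0.62, -0.68 and -0.67, so a 1.5-fold difference was not outside the interval of these 4. The offset in the background correction pulls ratios of dim probes toward 0, and these intervals therefore say less about genes near background.

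Among the genes tested, 31 of 41 members (75.6%) had their brightest probe above background in all 8 samples, beside 66.3% of all genes. Above background means that the spot lay over the negative control's median by more than 2 median absolute deviations. Of the 44 annotated genes, 31 had a probe above background in all 8 samples and 9 in 3 to 7 samples. The remaining 4, each above background in at most 2 samples, were EHHADH, LIPE, PPARA and PPARG. The hormone-sensitive lipase LIPE and the fatty acid receptor PPARA were above background in 0 of 8 samples. PPARG, the regulator of adipocyte formation, was above background in 1 of 4 samples at 10 months and 0 of 4 at 16 months. Counted by probe, 5 of 68 member probes were above background in no sample, beside 4353 of all 43794 embryo probes. All 9 uptake and activation genes were above background in every sample, and so were all 5 measured genes of the hydratase, dehydrogenase and thiolase steps. In the carnitine shuttle this held for CPT2 and CRAT among the 6 genes. An array gives only a bound below its background, and a gene not above it may still be expressed.

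**Figure D1:**
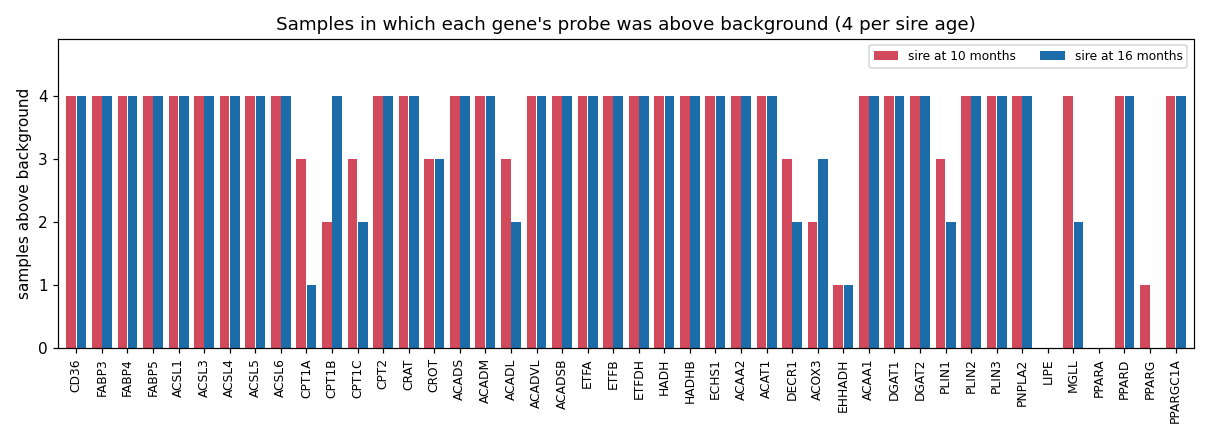
Number of samples (vertical axis, 0 to 4) in which the probe that stands for each gene was above background, with embryos sired at 10 months on the left and at 16 months on the right of each pair. LIPE and PPARA were at 0 in both ages, PPARG at 1 and 0, and CPT1A at 3 and 1.

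Detection varied with the dye. The count of member genes above background was 38, 40, 36 and 37 of 41 at 10 months on replicates 1 to 4, against 34, 35, 37 and 40 at 16 months, and the channel read in Cy5 gave the higher count on each array. The same held over all 43794 embryo probes, at 34720, 34066, 32890 and 32052 in Cy5 against 29658, 26178, 27291 and 27802 in Cy3. Unequal detection of CPT1A (3 samples at 10 months and 1 at 16 months), CPT1B (2 and 4) and MGLL (4 and 2) stands beside that difference between channels, and its part in those counts was not tested.

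Across the whole array, 35972, 34676, 34628 and 33452 of 43794 embryo probes exceeded background in at least 1 channel, counted for replicates 1 to 4, and replicate 3 had the widest log2 ratios (SD 0.47, against 0.30 to 0.32 on the others). Ratios of 10 over 16 months correlated positively across all 36325 probes between arrays of the same dye orientation, at r = 0.32 for replicates 1 and 2 and 0.12 for replicates 3 and 4, and negatively between arrays of opposite orientation, at -0.14 to -0.30. These correlations are across probes, which are not independent replicates. Over the 41 member genes they were 0.14 and 0.066 within an orientation and between -0.11 and -0.43 across orientations. As a check of the label, 11 of 12 trophectoderm markers were above background in every sample, CDX2, GATA3, KRT8 and KRT18 among them, and so were the inner cell mass factors POU5F1, NANOG and SOX2. Among markers of other cells, 3 of 7 annotated adipocyte genes were above background in all 4 samples of either age, 3 of 10 cumulus and granulosa genes, 2 of 8 leukocyte and erythroid genes at 10 months and 4 of 8 at 16 months, and 1 and 2 of 8 sperm and testis genes. The cumulus marker AMH and the leukocyte marker LYZ were above background in no sample. INHBA, CYP19A1 and STAR of the cumulus and granulosa list were above background in all 8 samples. So were PTPRC and HBA of the leukocyte and erythroid list, and LEP and ADIPOR2 of the adipocyte list. Each marker was read by its brightest probe. A second probe of PTPRC was above background in no sample, and a second probe of LEP in 2 samples at 10 months and 1 at 16 months. CYP19A1 and STAR also had dimmer probes that were not above background in every sample. In these embryo pools, fewer cells of a type and less RNA per cell cannot be told apart.

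**Figure D2:**
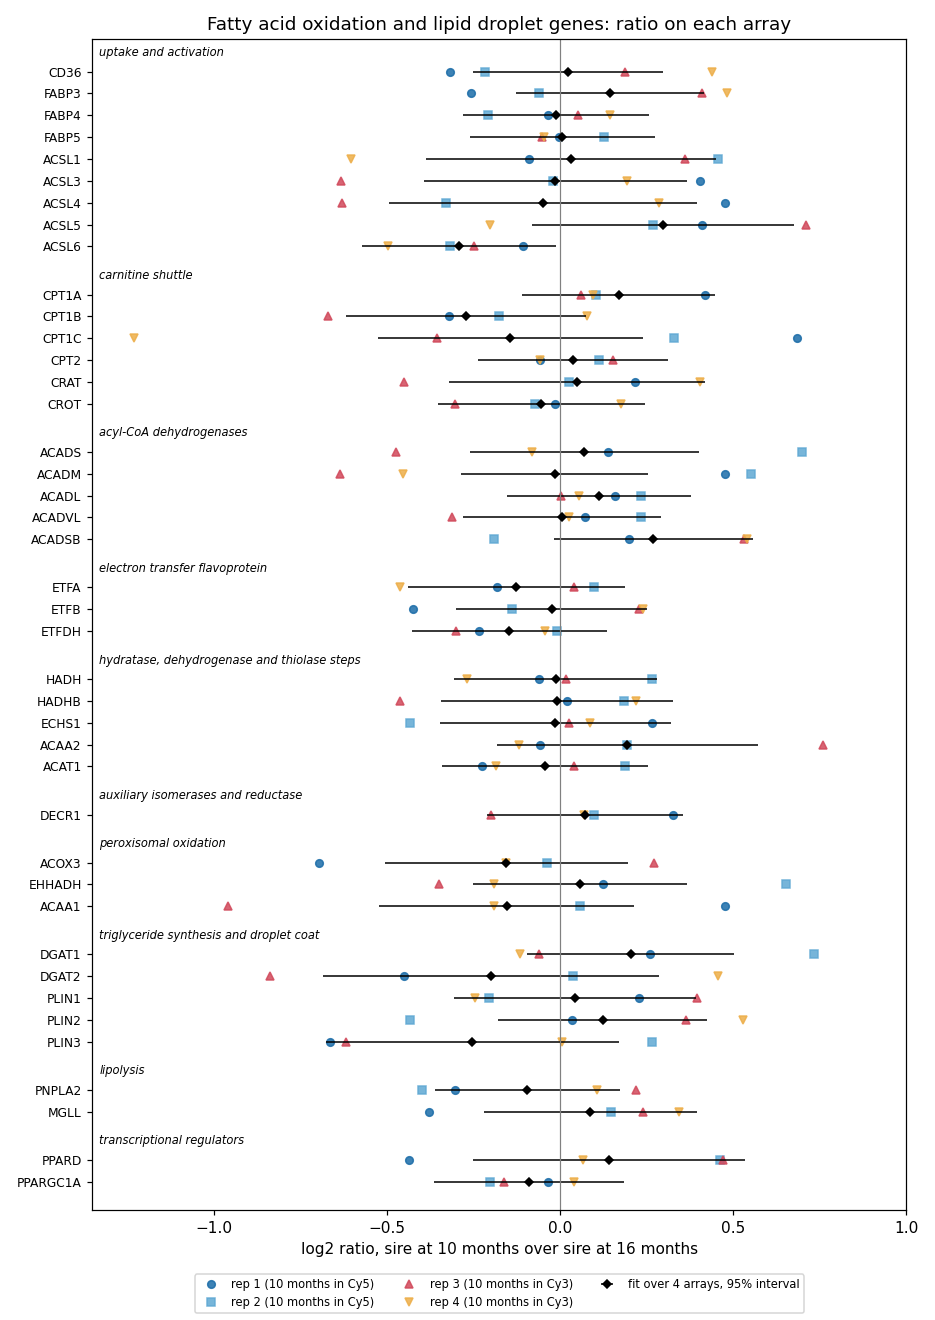
Log2 ratio of embryos sired at 10 months over 16 months (horizontal axis) for the 41 genes tested, grouped by role, with 1 coloured marker per array and a black diamond with its 95% interval for the fit over 4 arrays. Only the interval of ACSL6 lay wholly on one side of 0, and the markers of most genes fell on both sides of 0.

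The 9 genes of uptake and activation had a median ratio of 0.0071, with 5 above 0 and 4 below, and included both ends of the range. ACSL6, an acyl-CoA synthetase of long chains known mainly from brain and red cells, gave normalized intensities of 2004, 1624, 1268 and 1654 at 10 months on replicates 1 to 4, against 2159, 2024, 1506 and 2335 at 16 months. The 10-month sample was the lower of the pair on each array, while the ranges of the ages overlapped. The log2 ratios were -0.11, -0.32, -0.25 and -0.50, and the fitted ratio was -0.29 ± 0.12 (SE, 4 arrays), a fold of 0.816, with an unadjusted p of 0.0427 and a limma adjusted p of 0.957. That unadjusted p missed 0.05 with spot means, a stricter detection filter, no dye coefficient or a trended and robust variance, and without replicate 1, 2 or 4, at values between 0.0512 and 0.230. With spot means the fit was -0.13.

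ACSL5, an acyl-CoA synthetase found in mitochondria and endoplasmic reticulum, had intensities of 414, 309, 413 and 278 at 10 months, against 312, 256, 253 and 320 at 16 months. It was higher at 10 months on replicates 1 to 3 and lower on replicate 4. The log2 ratios were 0.41, 0.27, 0.71 and -0.20, and the fit gave 0.30 ± 0.16 (limma adjusted p = 0.957). Without replicate 4 the fit gave 0.52 and a limma adjusted p of 0.0433, where over the other alternatives the adjusted p lay between 0.897 and 1.00. That fit called 1858 of 36325 probes (5.11%), and replicate 3 alone stood for its dye orientation in it. Without replicate 3 ACSL5 was at 0.069, and with the sign of replicate 3 turned at -0.11.

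The other synthetases had ratios near 0 with intervals that were wide on either side. ACSL3, which acts on the endoplasmic reticulum and on growing droplets, had intensities of 16328, 10158, 9396 and 18103 at 10 months, against 12343, 10296, 14569 and 15827 at 16 months, and a fit of -0.014 ± 0.16. The sample at 10 months was the higher of the pair on replicates 1 and 4, the lower on replicate 3, and close to its partner on replicate 2. ACSL1, the main synthetase of liver and fat, was at 0.031 ± 0.18, with ratios between -0.60 and 0.46, and ACSL4, which prefers arachidonate, at -0.049 ± 0.19, between -0.63 and 0.48.

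CD36, the membrane fatty acid translocase, had intensities of 961, 1478, 749 and 1165 at 10 months, against 1196, 1716, 657 and 860 at 16 months. Its log2 ratios of -0.32, -0.22, 0.19 and 0.44 took the sign of the dye orientation, the dye effect being -0.29 (as log2 of Cy5 over Cy3) and a fitted age ratio of 0.024 ± 0.12. The fatty acid binding proteins carry fatty acids through the cytosol, and FABP3, the heart type, showed the same split by dye, at -0.26, -0.059, 0.41 and 0.48, with a fit of 0.14 ± 0.12. FABP4, the adipocyte type, was at -0.012 ± 0.12. FABP5, the epidermal type, had nearly equal intensities within each array, at 245, 182, 242 and 405 at 10 months, against 246, 167, 251 and 418 at 16 months, and a fit of 0.0071 ± 0.11. Its level on replicate 4 was above that on the other arrays at both ages.

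The carnitine shuttle had a median of -0.0082 over 6 genes, 3 above 0 and 3 below. On single arrays that median was 0.10, 0.064, -0.33 and 0.087, so replicate 3 stood below the others. CPT1A, the liver-type carnitine palmitoyltransferase of the outer mitochondrial membrane and the regulated step of the pathway in many tissues, had intensities of 153, 135, 134 and 119 at 10 months, against 114, 126, 129 and 111 at 16 months. It was the higher of the pair on all 4 arrays, at 0.42, 0.10, 0.060 and 0.096, most of all on replicate 1. The fit was 0.17 ± 0.12 (limma adjusted p = 0.957), which was 0.090 without replicate 1, 0.069 with set-aside spots kept and 0.019 with spot means. CPT1A was above background in 3 samples at 10 months and 1 at 16 months, so its ratio compares signals close to background.

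CPT1B, the muscle-type isoform, was also dim, with intensities of 97.8, 130, 76.2 and 124 at 10 months, against 122, 147, 121 and 117 at 16 months. Its log2 ratios were -0.32, -0.18, -0.67 and 0.078 and its fit -0.27 ± 0.15 (limma adjusted p = 0.957), and without replicate 3 the fit was -0.085. CPT1C, the neuronal isoform of the endoplasmic reticulum, had ratios of 0.68, 0.33, -0.36 and -1.23, which followed the dye, with a dye effect of 0.65 and an age ratio of -0.14 ± 0.17. The dye effect of CPT1C was larger than that of any other member's brightest probe. CPT1C was above background in 3 samples at 10 months and 2 at 16 months, so its ratios too compare signals close to background. CPT2, the inner membrane transferase that hands the chain back to coenzyme A, had intensities of 917, 1423, 964 and 1036 at 10 months, against 955, 1315, 867 and 1079 at 16 months, and a fit of 0.038 ± 0.12. CRAT, which forms carnitine esters of short chains, was at 0.048 ± 0.16, and CROT, the peroxisomal octanoyltransferase, at -0.054 ± 0.13.

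**Figure D3:**
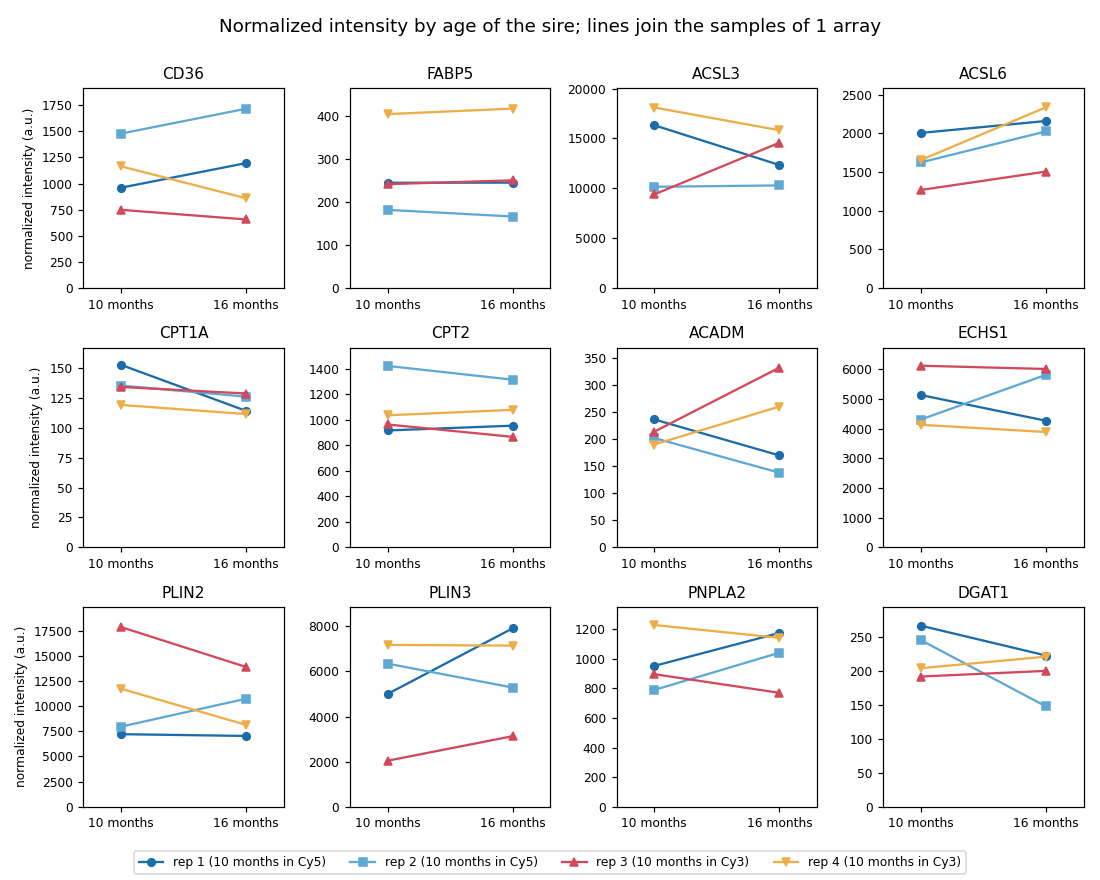
Normalized intensity (arbitrary units, vertical axis from 0) of 12 genes in embryos sired at 10 months, on the left, and at 16 months, on the right, with a line joining the samples of each array. The lines of ACSL6 and CPT1A run the same way on all 4 arrays, those of ACADM run opposite ways in the dye orientations, and PLIN3 lies lowest on replicate 3 at both ages.

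The acyl-CoA dehydrogenases carry out the first step of each round, and 4 of the 5 tested had ratios above 0, with a median of 0.070. ACADSB, which acts on short branched chains of amino acid breakdown as well as on short fatty acids, had intensities of 784, 522, 672 and 856 at 10 months, against 683, 596, 465 and 589.5 at 16 months. It was the higher of the pair at 10 months on replicates 1, 3 and 4 and the lower on replicate 2. The log2 ratios were 0.20, -0.19, 0.53 and 0.54 and the fit 0.27 ± 0.12, with an unadjusted p of 0.0625 and a limma adjusted p of 0.957. Without replicate 1 the fit was 0.17, and with no background subtraction the unadjusted p was 0.0425. ACADL, the long-chain enzyme, was at 0.16, 0.23, 0.0031 and 0.056, with a fit of 0.11 ± 0.11 (0.0012 with spot means), and was above background in 3 samples at 10 months and 2 at 16 months.

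ACADM, the medium-chain enzyme, had intensities of 237, 202, 214 and 190 at 10 months, against 170, 138, 333 and 261 at 16 months. The 10-month sample was the brighter on replicates 1 and 2 and the dimmer on replicates 3 and 4, by 0.48, 0.55, -0.64 and -0.45. The Cy5 channel was thus the brighter each time on this probe, with a dye effect of 0.53 and an age ratio of -0.015 ± 0.12. A brighter ACADM probe was not tested because its spot on replicate 4 was set aside. Its ratios on replicates 1 to 3 were 0.27, -0.15 and -0.65, so the split by dye was not seen there. The short-chain enzyme ACADS was at 0.070 ± 0.14 with a dye effect of 0.35, and the very-long-chain enzyme ACADVL at 0.0049 ± 0.12.

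The electron transfer flavoprotein takes electrons from these dehydrogenases and its ubiquinone oxidoreductase, ETFDH, passes them to the respiratory chain. All 3 genes had ratios below 0, with a median of -0.13, and none passed. That median was -0.027 without replicate 4 and -0.021 with each gene taken as the mean of its probes. ETFDH had intensities of 889, 928, 685 and 862 at 10 months, against 1045, 933, 844 and 888 at 16 months. It was the lower of the pair on each array, at -0.23, -0.0078, -0.30 and -0.044, and the fit was -0.15 ± 0.12 (limma adjusted p = 0.957). Without replicate 3 the fit was -0.082, and with spot means it was -0.16 at an unadjusted p of 0.0282. ETFA, the alpha subunit, was at -0.18, 0.097, 0.041 and -0.46, with a fit of -0.13 ± 0.13 (-0.00083 without replicate 4), and its second tested probe was at 0.12 ± 0.13. ETFB, the beta subunit, was at -0.024 ± 0.12, and its 3 other probes were at 0.051, -0.091 and -0.021.

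For 4 of the 5 genes of the later mitochondrial steps the ratio was below 0, and the median was -0.012. ECHS1, the enoyl-CoA hydratase, had intensities of 5136, 4311, 6124 and 4133 at 10 months, against 4270, 5817, 6014 and 3889 at 16 months, and a fit of -0.013 ± 0.14. HADH, the short-chain hydroxyacyl-CoA dehydrogenase, was at -0.012 ± 0.13. HADHB, the beta subunit of the trifunctional protein that handles long chains, was at -0.0088 ± 0.14. ACAT1, the mitochondrial acetoacetyl-CoA thiolase, was at -0.22, 0.19, 0.042 and -0.18, with a fit of -0.044 ± 0.13. DECR1, the dienoyl-CoA reductase needed for unsaturated chains, was at 0.33, 0.099, -0.20 and 0.069, with a fit of 0.073 ± 0.12 and signal above background in 3 samples at 10 months and 2 at 16 months.

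The 3 probes of ACAA2, the mitochondrial thiolase that ends each round, differed in dye effect, and the interval of each age ratio included 0. The brightest had intensities of 1247, 912, 2020 and 1030 at 10 months, against 1298, 798, 1194 and 1118 at 16 months, log2 ratios of -0.057, 0.19, 0.76 and -0.12, and a fit of 0.19 ± 0.16. Without replicate 3 its fit was -0.025. The other two probes had ratios of -1.43, -0.96, 0.57 and 1.34 for the first and -1.44, -1.17, 0.95 and 1.11 for the second. On those probes the Cy3 channel was the brighter on every array, with dye effects of -1.08 and -1.17 beside -0.13 on the brightest. Their fitted age ratios were -0.12 ± 0.16 and -0.14 ± 0.12. The mean fit over the 3 probes was -0.022.

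**Figure D4:**
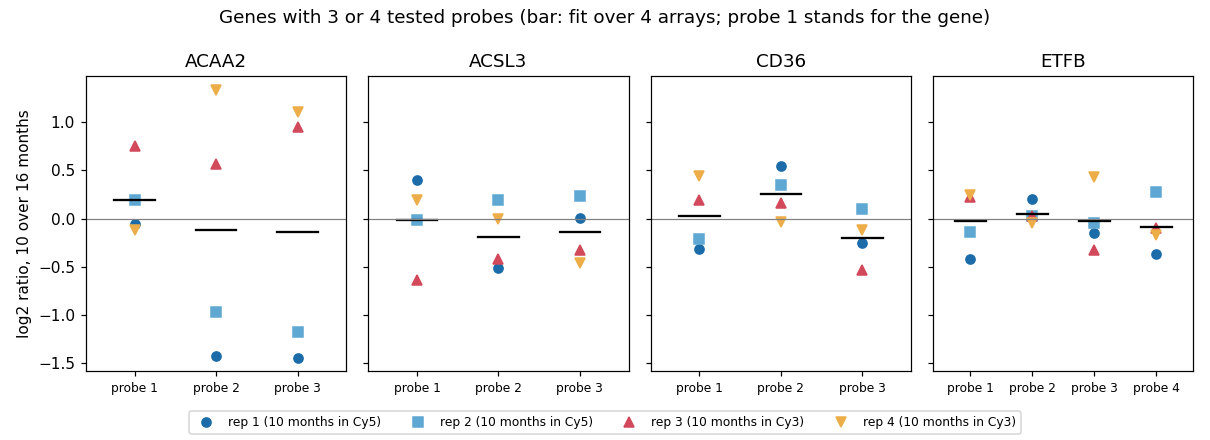
Log2 ratio of 10 over 16 months (vertical axis) on each array for every tested probe of the 4 genes with 3 or 4 such probes, with a black bar for the fit over 4 arrays and the probe that stands for the gene drawn first. Probes 2 and 3 of ACAA2 split by dye orientation, at -1.44 to -0.96 on replicates 1 and 2 and 0.57 to 1.34 on the other arrays, while its first probe did not.

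In all, 13 of the 41 genes had more than 1 tested probe. The 3 probes of CD36 were at 0.024, 0.26 and -0.20, and those of ACSL3 at -0.014, -0.14 and -0.19. The 2 probes of ACSL5 were both above 0, at 0.30 and 0.12, those of DGAT2 both below, at -0.20 and -0.25, and those of PPARGC1A both below, at -0.089 and -0.15. Pairs lay on opposite sides of 0 for ETFA and for ACAT1 (-0.044 and 0.13). For the remaining genes the second probe was at -0.16 beside -0.012 for FABP4, at 0.26 beside 0.048 for CRAT, at 0.074 beside 0.0049 for ACADVL and at 0.075 beside 0.073 for DECR1.

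Peroxisomes shorten chains that mitochondria handle poorly, and the 3 measured genes of that route had a median of -0.15, with 1 above 0. That median changed sign with set-aside spots kept (0.018), with the sign of replicate 3 turned (0.092), and without replicate 1 (0.010) or replicate 3 (0.038). ACAA1, the peroxisomal thiolase, had intensities of 645, 510, 176 and 489 at 10 months, against 464, 490, 342 and 557 at 16 months. Its ratios of 0.48, 0.058, -0.96 and -0.19 followed the dye, with a dye effect of 0.42 and an age fit of -0.15 ± 0.16, which was 0.038 without replicate 3. ACOX3, an acyl-CoA oxidase of branched chains, was at -0.70, -0.037, 0.27 and -0.16, with a fit of -0.15 ± 0.15, and 0.010 without replicate 1. EHHADH, the bifunctional hydratase and dehydrogenase, was above background in 1 sample of either age and had a fit of 0.059 ± 0.13.

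Among genes of triglyceride synthesis and the droplet coat, 3 of 5 had ratios above 0 and the median was 0.043. It was -0.041 with spot means, -0.037 with the stricter filter, -0.021 without replicate 1 and 0.13 without replicate 3. PLIN2, the perilipin that coats droplets in most cell types, had intensities of 7217, 7965, 17888 and 11742 at 10 months, against 7041, 10752, 13908 and 8143 at 16 months. The 10-month sample was the higher on replicates 3 and 4, the lower on replicate 2 and close to its partner on replicate 1, at 0.036, -0.43, 0.36 and 0.53. The fit was 0.12 ± 0.13 with a dye effect of -0.32. Replicate 3 had the highest PLIN2 level of the 4 arrays at both ages.

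PLIN3, a perilipin that moves between cytosol and droplets, had intensities of 5004, 6350, 2039 and 7180 at 10 months, against 7921, 5286, 3129 and 7152 at 16 months. Its ratios were -0.66, 0.26, -0.62 and 0.0057, and the fit was -0.25 ± 0.18 (limma adjusted p = 0.957). It was -0.021 without replicate 1, -0.097 without replicate 3, and -0.48 and -0.41 without replicates 2 and 4. Replicate 3 had the lowest PLIN3 level at both ages, in the array where PLIN2 was highest. PLIN1, the adipocyte perilipin, had ratios between -0.25 and 0.40 and a fit of 0.043 ± 0.15, and was above background in 3 samples at 10 months and 2 at 16 months.

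DGAT1 and DGAT2, unrelated enzymes that both complete triglyceride synthesis, had ratios on opposite sides of 0. DGAT1 had intensities of 267, 246, 192 and 204 at 10 months, against 223, 148, 200 and 221 at 16 months, ratios of 0.26, 0.73, -0.061 and -0.12, and a fit of 0.20 ± 0.13, which was 0.086 without replicate 2, 0.32 without replicate 1 and 0.091 with spot means. These ratios too took the sign of the dye orientation. DGAT2 had intensities of 329, 645, 492 and 554 at 10 months, against 449, 628, 879 and 404 at 16 months. Its ratios were spread more widely, between -0.84 on replicate 3 and 0.46 on replicate 4, with a fit of -0.20 ± 0.21. The SE of DGAT2 was the largest among the 41 genes.

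Lipolysis was measured through PNPLA2 and MGLL, the enzymes of its first and last step. PNPLA2, the adipose triglyceride lipase, had intensities of 952, 790, 897 and 1229 at 10 months, against 1176, 1042, 770 and 1143 at 16 months. Its ratios of -0.30, -0.40, 0.22 and 0.11 followed the dye, and the fit was -0.095 ± 0.12. MGLL, the monoglyceride lipase, was at -0.38, 0.15, 0.24 and 0.34, with a fit of 0.088 ± 0.13.

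Of the 4 regulators, PPARD and the coactivator PPARGC1A were tested. PPARD, a nuclear receptor that responds to fatty acids, had intensities of 554, 821, 857 and 617 at 10 months, against 749, 596, 619 and 589 at 16 months. It was the lower at 10 months on replicate 1 and the higher on the other arrays, at -0.43, 0.46, 0.47 and 0.067. Its fit was 0.14 ± 0.17, and -0.083 without replicate 2. PPARGC1A, which drives mitochondrial and oxidation genes in muscle and liver, had intensities of 135, 133, 140 and 136 at 10 months, against 138, 153, 156 and 133 at 16 months. Its ratios were -0.034, -0.20, -0.16 and 0.040, with a fit of -0.089 ± 0.12.

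Fitted dye effects and fitted age ratios were of the same order among these genes, with median sizes of 0.12 and 0.088. The dye effect was larger in size than the fitted age ratio for 24 of 41 genes (58.5%, beside 59.2% of all genes tested). For 11 of 41 genes (26.8%, beside 22.6% of all genes) the sign of the ratio split exactly by dye orientation on the brightest tested probe. These were CD36, FABP3, FABP4, CPT1C, ACADS, ACADM, ETFB, EHHADH, ACAA1, DGAT1 and PNPLA2. Among these brightest probes, the largest dye effects toward Cy5 belonged to CPT1C (0.65), ACADM (0.53) and ACAA1 (0.42). The largest toward Cy3 belonged to PLIN2 (-0.32), FABP3 (-0.30) and CD36 (-0.29). The dimmer probes of ACAA2 had larger ones toward Cy3, at -1.08 and -1.17. Replicate 3 gave the ratio farthest from 0 for 16 of 41 genes (39.0%, beside 40.3% of all genes).

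**Figure D5:**
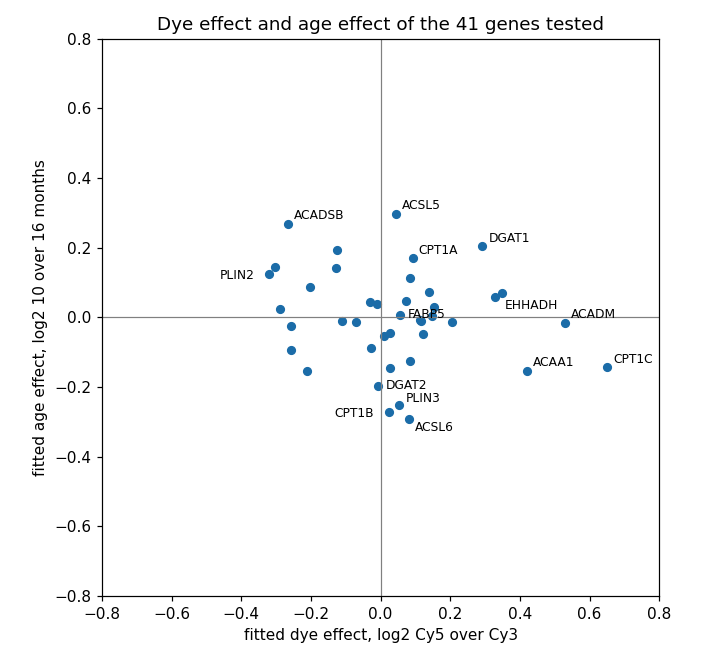
Fitted age ratio (log2 of 10 over 16 months, vertical axis) against fitted dye effect (log2 Cy5 over Cy3, horizontal axis) for the 41 genes tested, with 1 point per gene and equal scales. Age ratios lay between -0.29 and 0.30, and dye effects between -0.32 and 0.65.

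Levels of the same gene also differed between arrays, for both sire ages together. The SD of the array mean level over the 4 arrays had a median of 0.22 on the log2 scale among the 41 genes, beside 0.18 among all genes. It was larger than the size of the age ratio for 33 of 41 genes (80.5%, beside 75.5% of all genes). The genes that varied most in this way were PLIN3 (SD 0.68), ACAA1 (0.55), FABP5 (0.51), CD36 (0.48) and PLIN2 (0.48), and the steadiest were PLIN1 (0.046), PPARGC1A (0.062) and CPT1A (0.094). The steadiest 3 were dim, while other dim genes such as CPT1B (0.22) and DECR1 (0.25) were not as steady. The part of the background offset in these spreads was not tested. Bull, embryo pool, amplification and array cannot be told apart as sources of these levels.

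Other genes of the pathway were taken from a list of 65, of which 57 were annotated and 50 tested. None passed, 25 were above 0 and 25 below, and their median ratio was 0.0015. An unadjusted p under 0.05 was found for 4 of 50, where 4.47% of all genes reached it, namely ABHD5, FABP7, CIDEB and FABP1, each with limma adjusted p = 0.957. ABHD5, the activator of the lipase PNPLA2, had intensities of 501, 431, 667 and 709 at 10 months, against 368, 388, 324 and 547 at 16 months. It was the higher of the pair on each array, at 0.44, 0.15, 1.04 and 0.37, with a fit of 0.50 ± 0.15, while its 2 dimmer probes were at 0.24 ± 0.18 and -0.14 ± 0.13. FABP7, the brain-type fatty acid binding protein, was at 0.073, 0.22, 1.21 and 0.39, with a fit of 0.47 ± 0.15, and replicate 3 was the farthest from 0 for both genes. By brightest probe, the pathway genes below 0 with the smallest p were FITM1 and DBI. FITM1, a protein of droplet formation, was at -0.21 ± 0.13. DBI, the acyl-CoA binding protein, was at -0.22 ± 0.14 on its brightest probe and -0.095 ± 0.14 on the other. A dimmer probe of SCP2 was at -0.40 ± 0.13, with a smaller unadjusted limma p of 0.0139. The brightest SCP2 probe was at 0.36 ± 0.18, and the others tested were at -0.19 ± 0.14 and -0.14 ± 0.13.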

How the data were processed

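The 4 deposited scan files, per the file headers, held raw intensity of foreground and local background in the Cy5 and Cy3 channels for 45220 spots, linear and not normalized. The authors' deposited table holds log2 ratios, for which the submitters' processing notes name limma without a version. It correlated with log2 Cy5 over Cy3 of the same arrays at 0.978 to 0.991. Its column medians were -0.016, -0.014, -0.0057 and -0.0090, and whether that centring was intended is unknown. It served as an alternative.

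Values were computed with limma 3.58.1 in R 4.3.3. Spot medians less local background went through normexp (offset 50), leaving out spots the scan software had set aside (39, 21, 34 and 82), and normalized by loess within arrays with weight 0 for control spots. Printed intensities were then scaled between arrays (Aquantile), and ratios of single arrays still hold the dye effect. Of 43794 embryo probes, 175 with a set-aside spot and 7294 above background on fewer than 2 arrays were left out. The fit (lmFit, eBayes) had a dye and an age coefficient, 2 residual degrees of freedom and 5.72 from the prior, with Benjamini-Hochberg adjustment over 36325 probes. The brightest tested probe stood for a gene. The script was tested on simulated data. The number of arrays limits the precision.

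Symbols came from the platform annotation, and all 44 were in a RefSeq gene table, used for names only. No coordinates are printed, because the sources used here name no build for the probes. Values on every array were given for members with an unadjusted p under 0.05 and, in each role, for the 2 of smallest p, and for further members where a result turned on them, chosen after their values were seen. Members with several tested probes have each probe's ratio, and from the other pathway genes the 2 of smallest p per direction were named. The members and lists were chosen with earlier results of these data known.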

Additional observations from a re-analysis of the deposited data

Results flagged for a closer look

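Of 51 sets of 4 array values checked for a sample far from the others (41 genes, and the medians of the genes together and by role), 2 stood out. About 5% of sets would do so if the 4 values came from the same distribution. Ratios of single arrays still hold the dye effect, replicate 3 had the widest ratios, and the medians reuse the same genes. That share is therefore only a rough guide. The log2 ratio of CPT1A was 0.42 on replicate 1 and 0.060 to 0.10 on the other arrays, so that the gap to the nearest array was 0.881 of the whole range. The median over the 6 carnitine shuttle genes was -0.33 on replicate 3 and 0.064 to 0.10 on the others, with a gap of 0.914 of the range.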

How the results depend on the processing

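With all 4 arrays used as recorded, no member passed the adjusted test under any alternative. The count of members at an unadjusted p under 0.05 was 1 with all arrays, 2 with no background subtraction (ACSL6 and ACADSB), 1 with spot means (ETFDH in place of ACSL6), and 0 with a stricter filter, with no dye coefficient or with a trended and robust variance (limma), and the median of members was 0.050 with the sign of replicate 3 turned. Leaving out 1 array gave 0 to 1858 probes past the adjusted threshold (6 without replicate 3, 1858 without replicate 4), 0 to 1 members past it, 0 to 6 members at an unadjusted p under 0.05, and medians between -0.040 and 0.038. The member called was ACSL5, at 0.52 without replicate 4, a fit that called 5.11% of all probes. The share of all genes at an unadjusted p under 0.05 was not computed under the alternatives. Their counts of members at that level therefore have no background to be read against. Genes whose ratio changed sign, none of them called, were ACAT1 (0.016), DECR1 (-0.023), PNPLA2 (0.066) and MGLL (-0.00012) with spot means, DECR1 (-0.029) and ACOX3 (0.018) with set-aside spots kept, and ACAA2 (-0.022) and ACAT1 (0.041) as the mean over all tested probes. With replicate 3 turned they were ACSL5 (-0.11), CPT1B (0.068), ACAA2 (-0.16), ACAA1 (0.15), PLIN3 (0.040), PPARD (-0.040) and PPARGC1A (0.0078). That fit gives replicate 4 more weight. Leaving out 1 array, ACAT1 ran between -0.15 and 0.059, ACOX3 between -0.32 and 0.010, MGLL between -0.044 and 0.22, PPARD between -0.083 and 0.37, ACAA2 between -0.025 and 0.41, and ACAA1 between -0.35 and 0.038. The causes were not tested. The stricter filter left 13 of the 19 genes named by the rule. With median centring, no background subtraction or the authors' deposited table, all 19 kept their sign. Dropping the filter or the dye coefficient, or changing the variance model, leaves a probe's fitted ratio as it was in this balanced design. Kept signs under those settings are therefore no check. The fit on ratios within arrays already pairs the sire ages by array. Dim genes such as CPT1A, CPT1B, CPT1C, ACADL, DECR1, ACOX3 and MGLL are limited by signal over background.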

Other observations

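The annotation carries DCI and PECI, which the RefSeq table lists as older symbols of ECI1 and ECI2, the enoyl-CoA isomerases that let unsaturated chains enter the cycle. Their probes lie outside the rule that chose the genes. The 2 probes of DCI had fitted log2 ratios of -0.083 ± 0.13 and 0.014 ± 0.15 (SE, 4 arrays), and the probe of PECI 0.047 ± 0.12. Counting them as members, an alternative added after the data had been seen, left the count at an unadjusted limma p under 0.05 at 1 and the median at -0.0088.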
